A study of Mus musculus with 10 samples.

Results

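The transcripts described here are those of the histone H3K9 methyltransferase genes Setdb1, Setdb2, Suv39h1, Suv39h2, Ehmt1 and Ehmt2, chosen as every probe set that the platform annotation assigns to 1 of these 6 symbols. Of the 6 genes, 5 had such a probe set, 10 probe sets in all out of 45037 on the array: 3 for Setdb1 (Entrez gene 84505), 1 for Setdb2 (239122), 3 for Suv39h2 (64707), 1 for Ehmt1 (77683) and 2 for Ehmt2 (110147). No probe set was named for Suv39h1 in the annotation used, and its level is not analysed here.

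The cells were uninduced 3T3-L1 preadipocytes, a mouse line used as a model of fat cell formation, kept in DMEM with calf serum. They had received, with Metafectene Pro, 60 nM of siLsd1, which targets the mRNA of the demethylase LSD1 (gene Kdm1a), or 60 nM of siC, a scrambled control, and the medium was not changed afterwards. RNA was taken at 24 h from cells of passage 19 (siLsd1, 2 arrays, and siC, 2 arrays) and at 48 h from cells of passage 21 (siLsd1, 3 arrays, and siC, 3 arrays). All groups share the line and the transfection reagent, no untransfected cells are among them, and time and passage cannot be told apart. The labels call the replicates biological without saying that they are separate cultures, so p-values cover only how far these samples differed. In a culture taken as a whole, fewer cells of a type and less RNA per cell cannot be told apart.

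Methylation of lysine 9 of histone H3 marks silent chromatin and is read by HP1 proteins. SETDB1 places it at repeats and genes to which TRIM28 (KAP1) brings it, SETDB2 is a related enzyme that interferon induces in mouse macrophages, the SUV39H enzymes act on pericentric heterochromatin, and EHMT1 (GLP) and EHMT2 (G9a) work as a pair on genes in euchromatin. LSD1 removes methyl groups from H3K4 and, in some complexes, from H3K9, and both kinds of enzyme act on regulators of fat cell formation.

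Each array's median intensity lay between 35.6 and 40.6, and precision is limited by how few arrays each group has. Kdm1a, the targeted gene, was lower on every siLsd1 array than on every siC array by both of its probe sets, at 327 to 449 with siLsd1 against 569 to 656 with siC by the dimmer of them. Replicate 3 of siLsd1 at 48 h stood apart: over 11114 bright probe sets the SD of its log2 difference from its 2 replicates was 0.473 and 0.468, against 0.0966 to 0.244 between the other arrays of a group. Its Kdm1a intensities, 897 and 338, were the lowest at 48 h, and since all groups share 1 residual variance per probe set, it weighs on every test. The preadipocyte and fibroblast markers Pdgfra, Dlk1, Col1a1, Col1a2, Vim and Thy1 had mean intensities from 879 (Thy1) to 13841 (Vim) by their brightest probe sets. Of these, Thy1 fell with siLsd1 by 0.83 on the log2 scale at both times (SE 0.14 and 0.12, limma adjusted p 0.0210 and 0.00705), and 1 of the 3 Col1a2 probe sets fell at 48 h (limma adjusted p 0.0499). The dimmer Dlk1 probe set also fell at 48 h (log2 change −1.58, limma adjusted p 0.0209), and the brighter one did not pass (0.121). Markers of other cell types lay on both sides of 13.4, the mean below which a probe set was left out of the tests as dim. By the brightest probe sets the endothelial markers Pecam1, Cdh5 and Kdr had means of 11.6, 17.1 and 47.7, the epithelial markers Epcam, Cdh1 and Krt8 had 10.7, 10.4 and 23.5, and the leukocyte markers Ptprc, Cd68, Csf1r and Adgre1 had 11.1, 35.4, 103 and 115.

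The promoters of the 3 genes whose probe sets passed a test below are shown first, so that they can be set beside the changes: 250 bases before to 50 bases after the gene's start, on the gene's strand (minus for all 3), from the RefSeq table of GRCm38.p6, which held a promoter for all 6 genes. Capitals mark matches, on either strand, to the CCAAT box (CCAAT), the GC box (GGGCGG), an E2F site (TTTNNCGC) and the core of an interferon response element (GAAA, any 2 bases, GAAA).
Setdb2, chr14:59440831-59441130: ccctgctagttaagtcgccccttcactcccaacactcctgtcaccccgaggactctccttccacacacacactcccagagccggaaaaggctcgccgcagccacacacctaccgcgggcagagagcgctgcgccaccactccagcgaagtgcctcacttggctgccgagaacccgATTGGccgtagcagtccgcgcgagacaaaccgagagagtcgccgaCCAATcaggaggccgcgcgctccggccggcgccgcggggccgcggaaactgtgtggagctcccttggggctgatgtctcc
Ehmt1, chr2:24919560-24919859: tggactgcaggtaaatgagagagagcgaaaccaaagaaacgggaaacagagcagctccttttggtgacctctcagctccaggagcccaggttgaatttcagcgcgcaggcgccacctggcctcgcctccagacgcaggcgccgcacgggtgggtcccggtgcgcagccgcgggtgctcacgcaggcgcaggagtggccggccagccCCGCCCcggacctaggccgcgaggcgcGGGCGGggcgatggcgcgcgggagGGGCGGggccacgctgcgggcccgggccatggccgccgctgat
Suv39h2, chr2:3474937-3475236: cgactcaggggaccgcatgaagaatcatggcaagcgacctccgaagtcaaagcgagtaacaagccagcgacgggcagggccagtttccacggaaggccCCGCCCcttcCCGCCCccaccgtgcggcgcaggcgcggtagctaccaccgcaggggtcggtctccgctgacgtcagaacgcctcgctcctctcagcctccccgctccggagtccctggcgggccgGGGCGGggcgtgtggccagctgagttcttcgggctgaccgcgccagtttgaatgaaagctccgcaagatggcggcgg
The Setdb2 window held 2 CCAAT boxes, starting 75 and 30 bases before the gene's start, and no GC box, whereas the windows of Ehmt1 and Suv39h2 held 3 GC boxes each and no CCAAT box. No match to the E2F or the interferon response element letters lay in these 3 windows. Among 32851 promoters of the same length, 37.4% held a CCAAT box, 35.7% a GC box, 5.17% the E2F letters and 3.44% the interferon letters. The 3 windows had 29 (Setdb2), 34 (Ehmt1) and 33 (Suv39h2) CpG dinucleotides, against a median of 7 over all promoters. These matches describe the letters and do not show a bound site.

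Among the H3K9 methyltransferase genes with a probe set, only Setdb2 passed the test of the LSD1 siRNA at both times with all arrays in the fit, and it was higher. Being alone in this depended on the arrays used. Ehmt1, described below, was lower with siLsd1 at both times, and it passed at both when siLsd1 48 h replicate 3 was left out. At 24 h the intensity of Setdb2 was 1289 and 1157 with siLsd1, against 763 and 804 with siC. At 48 h it was 597, 551 and 553 with siLsd1, against 250.1, 236 and 266 with siC. At each time the lowest siLsd1 array lay above the highest siC array, and every array of either siRNA at 24 h lay above all arrays at 48 h.

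The group means of Setdb2 were 1223 ± 93.3 with siLsd1 and 784 ± 29.2 with siC at 24 h (SD, n = 2 each), a rise of 1.56-fold (0.64 on the log2 scale with an SE of 0.11, limma adjusted p 0.0195). At 48 h the means were 567 ± 25.9 with siLsd1 and 250.6 ± 14.8 with siC (SD, n = 3 each), a rise of 2.26-fold (log2 change 1.18, SE 0.09, limma adjusted p 0.000146). Of the 33777 probe sets tested, 20 had a p-value as small as or smaller than that of Setdb2 at 48 h, itself included, and 225 did at 24 h. As the members were chosen with earlier results of these data known, these ranks are a description with no test. Taking both times with equal weight, the log2 change was 0.91 (SE 0.07, limma adjusted p 0.000114). The rise at 48 h passed the test with each array left out in turn, at log2 changes from 1.14 to 1.22. The call at 24 h was lost without siLsd1 24 h replicate 1 or 2 (limma adjusted p 0.246 and 0.101) and without siC 24 h replicate 1 or 2 (0.169 and 0.115), while the log2 change stayed between 0.56 and 0.72.

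The siLsd1 change of Setdb2 at 48 h exceeded that at 24 h by 0.54 on the log2 scale (SE 0.14), a difference that did not pass correction (limma adjusted p 0.758). No probe set of the 33777 tested passed in that comparison, in which limma gave 1883 an unadjusted p under 0.05. With siLsd1 48 h replicate 3 left out, 101 probe sets passed and Setdb2 was not among them (difference 0.56, adjusted p 0.109).

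**Figure D1:**
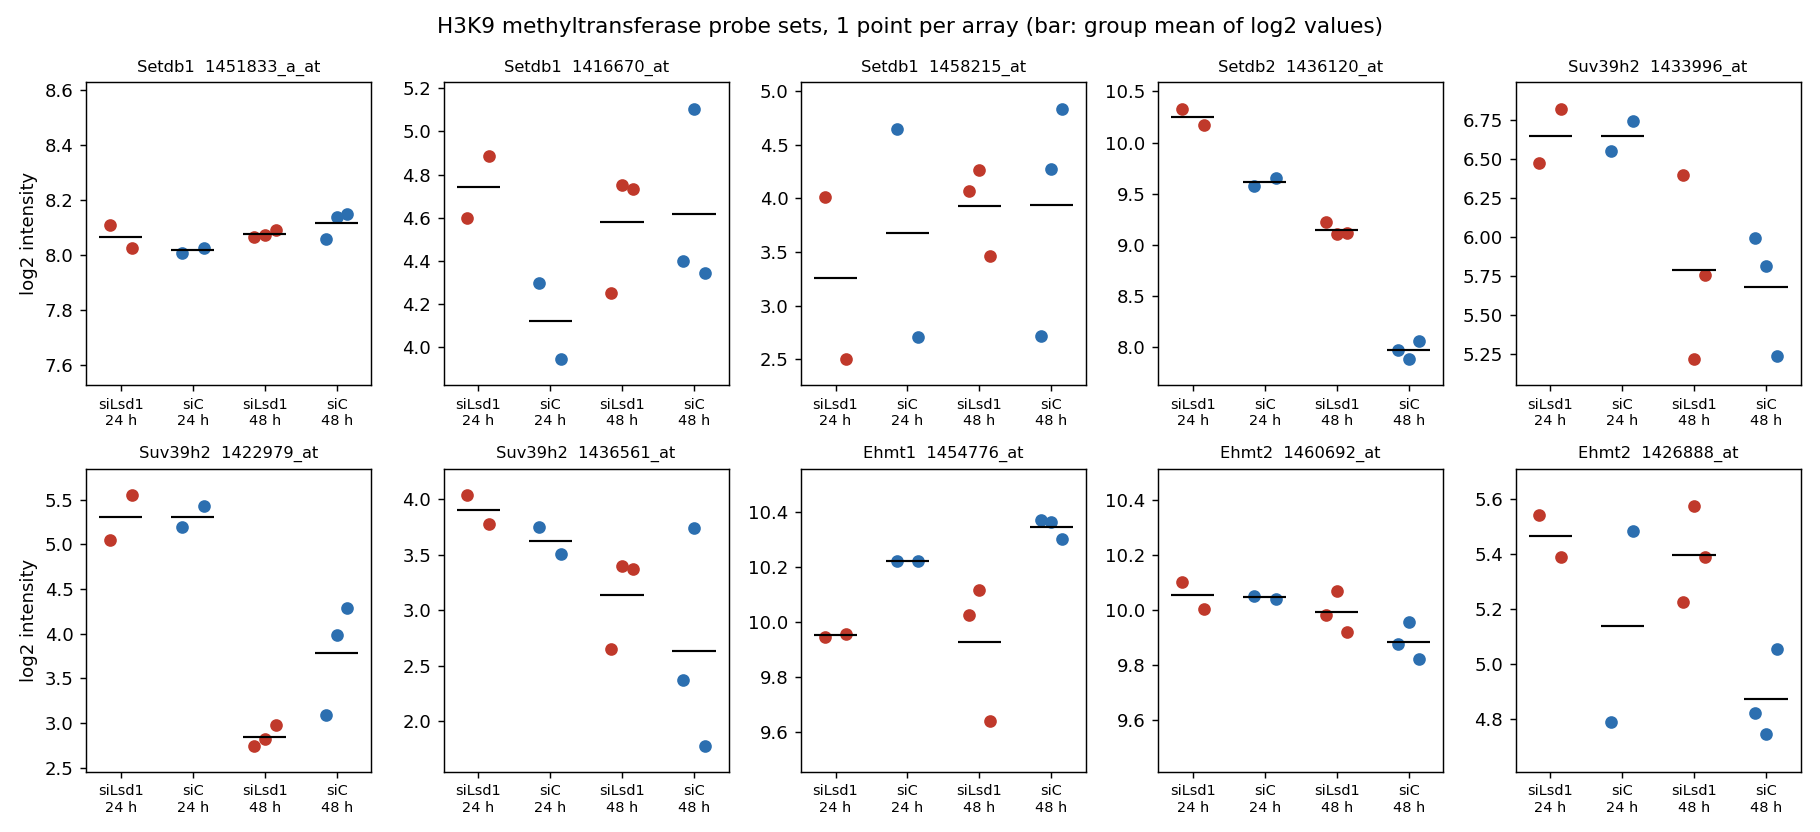
Log2 intensity (vertical axis) of the 10 probe sets of the H3K9 methyltransferase genes in the 4 groups, 1 point per array, with siLsd1 in red, siC in blue and bars for the group means of the log2 values. Setdb2 falls into 4 separate levels with siLsd1 above siC at both times, Ehmt1 is lower on all siLsd1 arrays, and the brightest Setdb1 probe set stays between 257 and 284 intensity units on all arrays.

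Ehmt1, which encodes the GLP partner of G9a, moved the other way. Its intensities at 24 h were 987 and 994 with siLsd1, against 1193 and 1195 with siC. At 48 h they were 1043, 1110.1 and 799 with siLsd1, against 1323, 1316 and 1263 with siC. No siLsd1 array reached the lowest siC array at either time, and the value of 799 came from the replicate that stood apart.

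Averaged over both times, Ehmt1 fell 1.27-fold (limma log2 change −0.34, SE 0.09, adjusted p 0.0300). The single times did not pass: the log2 change was −0.27 at 24 h (SE 0.14, limma adjusted p 0.370) and −0.42 at 48 h (SE 0.11, limma adjusted p 0.0543). When siLsd1 48 h replicate 3 was left out, both times passed with almost the same change, −0.27 at 24 h (limma adjusted p 0.0135) and −0.27 at 48 h (0.0120), and the mean of both times was −0.27 (0.000959). The call on the mean of both times was lost without siLsd1 24 h replicate 1 or 2 (limma adjusted p 0.115 and 0.0999), siC 24 h replicate 1 or 2 (0.0955 and 0.0942) and siC 48 h replicate 1, 2 or 3 (0.0595, 0.0719 and 0.0549). At 48 h Ehmt1 also passed without siLsd1 48 h replicate 2 (log2 change −0.51, limma adjusted p 0.0360).

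Ehmt2, the gene of G9a itself, did not pass any test. By its bright probe set the intensities at 24 h were 1099 and 1029 with siLsd1, against 1062 and 1054 with siC. At 48 h they were 1013, 1074 and 971 with siLsd1, against 941, 993 and 907 with siC. The groups overlapped at both times, and the 95% interval of the log2 change ran from −0.19 to 0.21 at 24 h and from −0.06 to 0.27 at 48 h. The other Ehmt2 probe set, at 26.8 to 47.6 intensity units, gave a log2 change of 0.52 at 48 h (SE 0.21, limma adjusted p 0.161) with no overlap between the groups, so the probe sets of this gene differ in size of change and neither passed.

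Setdb1, the methyltransferase recruited by TRIM28, showed no change that passed. Its bright probe set read 276 and 261 with siLsd1 against 257 and 261 with siC at 24 h. At 48 h it read 268, 269 and 273 with siLsd1 against 267, 282 and 284 with siC. The log2 change was 0.05 at 24 h (95% interval −0.19 to 0.29) and −0.04 at 48 h (95% interval −0.23 to 0.16), and the 48 h value turned positive with each array centred on its median (0.02) or with quantile normalization (0.04). The 2 other probe sets of Setdb1 lay between 5.67 and 34.4 intensity units and scattered widely within groups. One of them, at 24.3 and 29.6 with siLsd1 against 19.7 and 15.4 with siC at 24 h, gave a log2 change of 0.62 (SE 0.34, limma adjusted p 0.418), and at 48 h its change was −0.04.

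Suv39h2, an enzyme of pericentric heterochromatin, had no siRNA change that passed. Its brightest probe set had 88.8 and 113 with siLsd1 against 93.7 and 107 with siC at 24 h. At 48 h the same probe set had 84.4, 37.2 and 53.9 with siLsd1 against 63.6, 56.2 and 37.7 with siC. Neither time passed (log2 change 0.00 and 0.11, 95% intervals −0.79 to 0.79 and −0.54 to 0.76). A second probe set had 33.2 and 46.8 with siLsd1 against 36.6 and 43.0 with siC at 24 h. At 48 h it had 6.72, 7.07 and 7.85 with siLsd1 against 8.49, 15.8 and 19.5 with siC. Here the 48 h groups did not overlap, but the log2 change of −0.94 (SE 0.34) did not pass (limma adjusted p 0.122), its values lay near or below the level called dim, and the brightest probe set did not show it. The third Suv39h2 probe set, at 3.44 to 16.4, was the only 1 of the 10 left out of the tests as dim.

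Read against the whole array, 1 of the 9 tested probe sets was called at 24 h, higher, where 2.02% of all probe sets tested were called in either direction, 1.07% higher and 0.941% lower. At 48 h 1 of 9 was called, higher, against 5.96% in either direction, 3.07% higher and 2.89% lower. For the mean of both times 1 was called higher and 1 lower, against 13.1% in either direction, 5.71% higher and 7.42% lower. The median log2 change of the 9 was 0.01 at 24 h and −0.01 at 48 h, against −0.01 and −0.03 over all probe sets tested. The members were chosen with earlier results of these data known. These counts, and those of siC cells below, are therefore a description with no test.

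**Figure D2:**
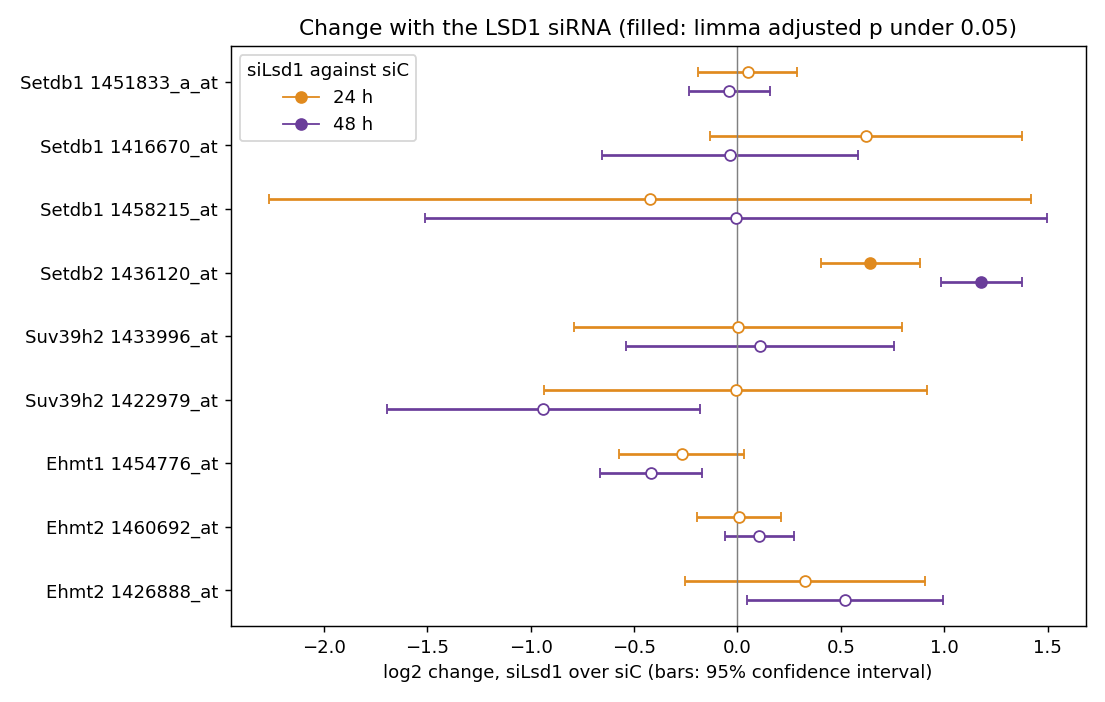
Log2 change of siLsd1 over siC (horizontal axis) for the 9 tested probe sets at 24 h (orange) and 48 h (purple), with 95% confidence intervals from the fit. Filled points passed at a limma adjusted p under 0.05, which Setdb2 did at both times (0.64 and 1.18), and the intervals of the bright Setdb1 and Ehmt2 probe sets are the narrow ones around 0.

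Control cells also differed between the times, with siC arrays shared between this comparison and those above. At 48 h Setdb2 was lower in siC cells than at 24 h by 3.13-fold (log2 change −1.65, SE 0.10, limma adjusted p 4.80e-05), by the siC intensities given above. The dimmer tested probe set of Suv39h2 fell as well, with means of 14.6 ± 5.62 at 48 h (SD, n = 3) and 39.8 ± 4.53 at 24 h (SD, n = 2; limma log2 change −1.52, SE 0.38, adjusted p 0.0195). That call was lost without siC 24 h replicate 1 or 2 (limma adjusted p 0.0875 and 0.129) and with the replicate number as a block (0.0767). The brighter Suv39h2 probe set gave −0.97 (SE 0.32, limma adjusted p 0.0643), with no overlap between the siC groups. The siC groups also did not overlap for Ehmt1 and the bright Setdb1 and Ehmt2 probe sets, at log2 changes of 0.12, 0.10 and −0.16 that were not called. Lack of overlap alone therefore says little here. The brighter Suv39h2 probe set passed under 7 of the 21 alternatives to the fit listed at the end. These were the siC arrays alone (limma adjusted p 0.0230), quantile normalization (0.0491), arrays centred on the median (0.0351) and leaving out siLsd1 48 h replicate 1, 2 or 3 (0.0298, 0.0357 and 0.0446). The last was the average of all Suv39h2 probe sets (0.0137), which includes the called and the dim one. Over the 21 the log2 change ran from −1.16 to −0.37, and the limma adjusted p reached 0.572.

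In this comparison 2 of the 9 probe sets were called lower and 0 higher, against 8.62% lower and 10.4% higher over all tested. By limma 3 of the 9 had an unadjusted p under 0.05, near the share of 31.7% over all tested. Centring each array on its median lowers all changes of siC at 48 h against 24 h by 0.14 on the log2 scale. With that scaling the bright Ehmt2 probe set and the brighter Suv39h2 probe set were also called lower (log2 change −0.30 and −1.10), and the small positive changes of Ehmt1 (0.12) and the bright Setdb1 probe set (0.10) became −0.01 and −0.04 without passing.

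The order of Setdb2 levels was siLsd1 24 h, siC 24 h, siLsd1 48 h and siC 48 h, and no 2 neighbours in it overlapped. Ehmt1 had a different order, with siC 48 h above siC 24 h and both siLsd1 groups below, and these siLsd1 groups overlapped each other. By the bright probe sets of Ehmt2 and Setdb1, siLsd1 and siC overlapped at both times.

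Among 27490 tested probe sets of other named genes, those most like Setdb2 over the 10 arrays were Mlkl (Pearson r = 0.99), Ifih1 (0.99) and Tlr3 (0.99). Mlkl encodes the effector of necroptosis, and Ifih1 and Tlr3 encode sensors of double-stranded RNA. The 10 arrays form 4 groups, so these correlations mostly reflect the group levels, and as the genes were picked for likeness to Setdb2 on these arrays, their values are a description with no test. Mlkl had 2514 and 2389 with siLsd1 against 1471 and 1404 with siC at 24 h. At 48 h Mlkl had 1128, 1105 and 1212 with siLsd1 against 439, 429 and 440.0 with siC. Its log2 change with siLsd1 was 0.77 at 24 h and 1.40 at 48 h. That of Ifih1 was 0.47 at 24 h and 1.07 at 48 h, and that of Tlr3 was 0.53 at 24 h and 1.02 at 48 h.

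Those most like Ehmt1 were Ing1, a chromatin reader of the ING family, Prkar2b, a regulatory subunit of protein kinase A, and Cdh13, a cadherin (r = 0.99, 0.99 and 0.98). Ing1 had 653 and 682 with siLsd1 against 857 and 837 with siC at 24 h. At 48 h it had 758, 748 and 560.3 with siLsd1 against 925, 928 and 889 with siC. Picked in the same way, these genes add no test to that of Ehmt1.

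The most similar genes to Setdb1 were 9130410C08Rik, Klhl22 and Tbc1d5 (r = 0.94, 0.93 and 0.92), those to Suv39h2 were Hfe, Pa2g4 and Amigo2 (0.93, 0.92 and 0.92), and those to Ehmt2 were Hspa4l, Gata4 and Fgfr1 (0.95, 0.94 and 0.92). These are the highest of 27490 values on 10 arrays and do not show shared regulation. The Setdb1 probe set ran only from 257 to 284. Some of the matches were weak, with 9130410C08Rik at 13.6 to 30.5, Tbc1d5 at 11.1 to 47.8 and Gata4 at 9.08 to 24.9.

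**Figure D3:**
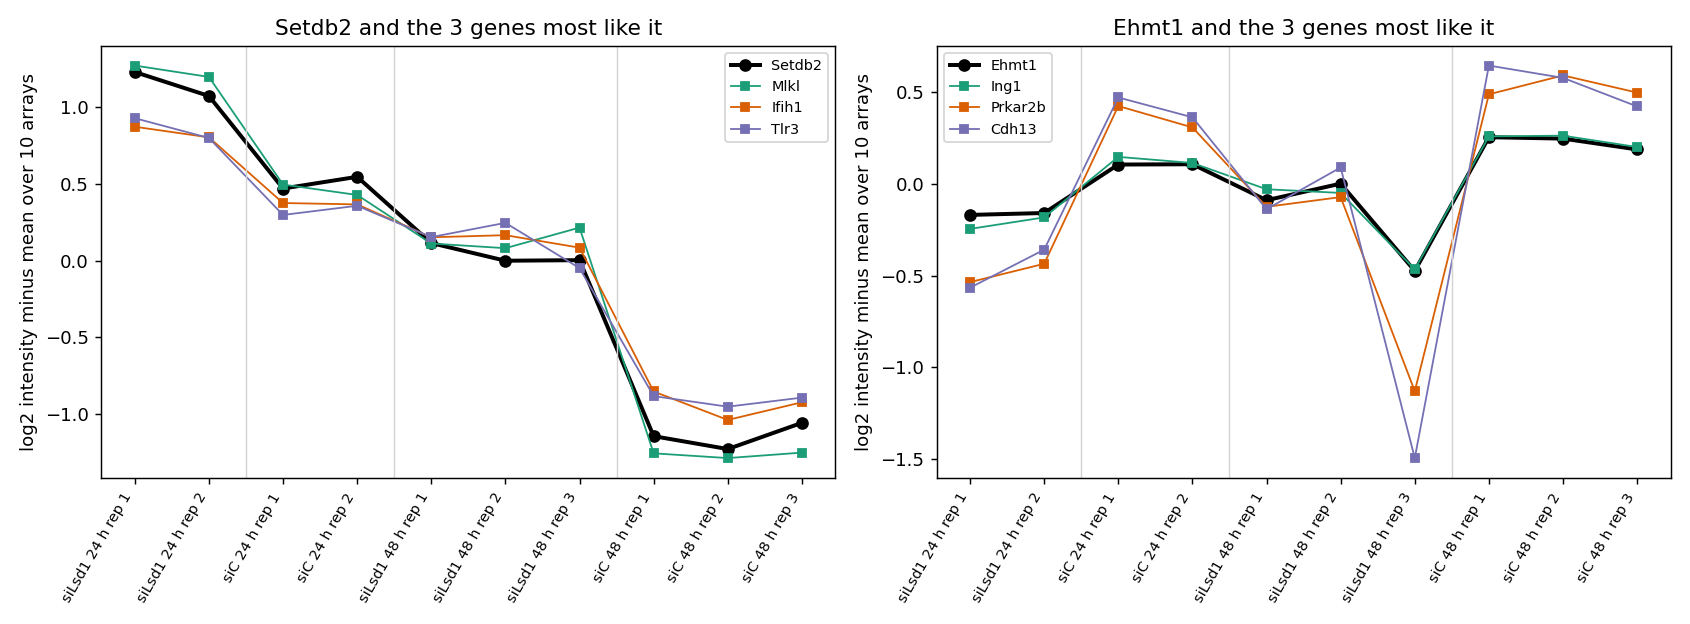
Log2 intensity minus its mean over the 10 arrays (vertical axis) on each array (horizontal axis, grouped by siRNA and time), for Setdb2 with Mlkl, Ifih1 and Tlr3 on the left and Ehmt1 with Ing1, Prkar2b and Cdh13 on the right. The Setdb2 set steps down through the 4 groups, and the Ehmt1 set is lower on every siLsd1 array with a dip on siLsd1 48 h replicate 3.

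Interferon and cytokine genes were measured beside Setdb2. The shares of all tested probe sets called in either direction were 2.02% at 24 h and 5.96% at 48 h, 13.1% for the mean of both times and 19% between the times in siC cells. Without siLsd1 48 h replicate 3 they were 14%, 9.45%, 20.5% and 31.1%. The counts of this and the following lists stand beside these shares. Of 10 probe sets of 7 such genes, 6 rose and 0 fell with siLsd1 at 24 h, and 7 rose and 0 fell at 48 h (9 and 0 without siLsd1 48 h replicate 3). The rises at 24 h were those of Ifnb1, Ifna4, Cxcl10 and several probe sets of Cxcl1. Irf7 (log2 change 0.29, limma adjusted p 0.195), Stat2 (0.06 and 0.11) and Irf9 (−0.17) were not called at 24 h. At 48 h Irf7 was called as well (0.49, limma adjusted p 0.0145), and Stat2 (0.18 and 0.49) and Irf9 (−0.25) were not. The median log2 change of the 10 probe sets was 1.17 at 24 h and 0.99 at 48 h, against −0.01 and −0.03 over all probe sets tested. This list was chosen with earlier results of these data known, and Cxcl1 enters it with several probe sets. The contrast of medians is therefore a description with no test. Ifnb1, which encodes interferon beta, rose by 2.80 at 24 h and 2.13 at 48 h on the log2 scale (SE 0.26 and 0.21, limma adjusted p 0.00249 and 0.000821). The probe set of Ifna4, an interferon alpha gene with near-identical relatives that its probes may share, rose by 3.69 at 24 h and 2.31 at 48 h (limma adjusted p 0.000196 and 0.000205). Cxcl1, a neutrophil chemokine gene that SETDB2 is reported to repress in mouse macrophages, rose by 1.45 at 24 h (SE 0.19, limma adjusted p 0.00881). Cxcl10, an interferon-induced chemokine gene, rose by 1.02 at 24 h and 2.34 at 48 h (SE 0.18 and 0.14, limma adjusted p 0.0210 and 7.29e-05). In siC cells 5 of the 10 fell at 48 h against 24 h, with Cxcl10 at −2.46 and Ifnb1 at −2.16 (limma adjusted p 5.44e-05 and 0.000339). The part of this response in the Setdb2 levels was not tested.

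Of the leukocyte markers, no tested probe set passed at 24 h or 48 h, and Ptprc was too dim to be tested. The summed intensity of Ptprc, Adgre1, Cd68 and Csf1r, 3 of which lay above the dim level, was 234 to 309 with siLsd1 and 219 to 245 with siC at 24 h, and 271 to 325 with siLsd1 and 230.1 to 268 with siC at 48 h. Ptprc was at 17.0 intensity units or less on every array by either probe set, while the brightest probe sets of Adgre1 and Csf1r had means of 115 and 103. The labels name only the 3T3-L1 line. Whether these signals came from leukocytes, or bore on the Setdb2 result, was not tested.

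Partners and readers of H3K9 methylation were counted over 49 tested probe sets of 17 genes. With siLsd1, 0 rose and 0 fell at 24 h, where limma gave 6 an unadjusted p under 0.05 (1 rose and 6 fell without siLsd1 48 h replicate 3), and 2 rose and 0 fell at 48 h (2 and 2 without it). The 7 of 49 called at 24 h without that array are near the share of 14% over all probe sets. Daxx, the histone chaperone that works with ATRX, had 1719 ± 53.8 with siLsd1 against 913 ± 79.0 with siC at 48 h (SD, n = 3; limma log2 change 0.92, SE 0.08, adjusted p 0.000489). A probe set of Cdyl, a chromodomain corepressor, had 98.4 ± 7.65 with siLsd1 against 59.6 ± 11.2 with siC at 48 h (SD, n = 3; limma log2 change 0.74, SE 0.17, adjusted p 0.0365). The other tested Cdyl probe sets did not pass at 48 h (log2 change 0.48 and 0.27, limma adjusted p 0.0556 and 0.720). For the mean of both times 1 rose and 6 fell, 7 of 49, near the 13.1% called over all probe sets. Among the falls were a probe set of the HP1 alpha gene Cbx5 (log2 change −0.61, limma adjusted p 0.0260), 1 probe set of Atrx (−0.47, 0.0315) and 1 of Zfp644, whose product accompanies G9a and GLP (−0.41, 0.0461). A further Cbx5 probe set was also lower at 24 h and 48 h (log2 change −0.54 and −0.36, limma adjusted p 0.194 and 0.178). The remaining Cbx5 probe sets, with log2 changes of 0.04, −0.29 and −0.86 for the mean, were not called (limma adjusted p 0.951, 0.0729 and 0.223). The other tested probe sets were not called for Atrx (−0.42 to 0.16) or for Zfp644 (−0.11 to 0.05).

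Demethylases of H3K9 gave 21 tested probe sets of 12 genes. With siLsd1, 0 rose and 1 fell at 24 h, and 0 rose and 3 fell at 48 h (0 and 6, and 0 and 3, without siLsd1 48 h replicate 3), where 2.02% and 5.96% of all probe sets were called (14% and 9.45% without that array). The fall at 24 h was that of Kdm1a, the siRNA's own target, and both of its probe sets fell at 48 h (log2 change −0.65 and −0.55, SE 0.11 and 0.14, limma adjusted p 0.0160 and 0.0488). The other fall at 48 h was 1 probe set of Kdm7a, a JmjC demethylase gene (log2 change −0.73, SE 0.15, limma adjusted p 0.0270). One probe set of Phf2, another JmjC gene, fell for the mean of both times (log2 change −0.37, SE 0.08, limma adjusted p 0.0202), and its other one did not pass (−0.08).

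Other H3K9 and H4K20 methyltransferases were represented by 17 tested probe sets of 6 genes, of which 0 were called at 24 h or 48 h with limma, with 1 and 3 at an unadjusted p under 0.05 (1 fell at 24 h without siLsd1 48 h replicate 3). For the mean of both times the H4K20 enzyme gene Kmt5c fell (log2 change −0.45, SE 0.10, limma adjusted p 0.0150). In siC cells 1 of 3 probe sets of Mecom fell by 1.49 on the log2 scale at 48 h against 24 h (SE 0.11, limma adjusted p 6.87e-05).

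Genes of DNA methylation, which works with H3K9 methylation in heterochromatin, were tested by 15 probe sets of 5 genes. Of these, 7 were lower and 1 higher in siC cells at 48 h than at 24 h, where 19% of all probe sets were called, with Uhrf1, a reader of both marks, at −2.90 (SE 0.20, limma adjusted p 6.05e-05), the remodeller gene Hells at −2.11 (SE 0.21, limma adjusted p 0.000216) and Dnmt1, the maintenance methyltransferase gene, at −1.54 (SE 0.17, limma adjusted p 0.000318). Of 9 tested probe sets of proliferation genes, 8 were lower at 48 h in the same comparison, Mki67 at 114 ± 2.09 at 48 h (SD, n = 3) and 721 ± 11.8 at 24 h (SD, n = 2). Their part in the lower Suv39h2 signal at 48 h was not tested. With siLsd1 the DNA methylation probe sets had 0 calls at 24 h, where limma gave 5 an unadjusted p under 0.05 (5 fell without siLsd1 48 h replicate 3), and 1 call at 48 h, a rise of Hells by 0.87 (SE 0.19, limma adjusted p 0.0298) that its other probe sets did not share (−0.15 and 0.04). For the mean of both times 3 of the 15 fell (5 without siLsd1 48 h replicate 3). With siLsd1 the proliferation probe sets had 0 rises and 1 fall at 24 h, that of Mki67 (log2 change −1.33, SE 0.22, limma adjusted p 0.0199), and at 48 h 0 calls with 2 at an unadjusted p under 0.05 by limma (0 and 3 at 24 h, and 2 and 0 at 48 h, without siLsd1 48 h replicate 3).

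Adipogenic regulators, among them genes on which these enzymes act during fat cell formation, gave 16 tested probe sets of 9 genes. With siLsd1 0 rose and 1 fell at 24 h (2 and 4 without siLsd1 48 h replicate 3), and 1 rose and 5 fell at 48 h (1 and 6 without it), where 2.02% and 5.96% of all probe sets were called (14% and 9.45% without that array). All 4 probe sets of the fat cell gene Fabp4 fell at 48 h, by log2 changes of −2.03, −1.39, −1.24 and −1.16 (limma adjusted p 0.0273, 0.0184, 0.0160 and 0.0262). One probe set of Dlk1, a preadipocyte gene, fell by 1.58 at 48 h (SE 0.30, limma adjusted p 0.0209), while its brighter one changed by −0.20 and did not pass (0.121). One of the 2 probe sets of Cebpb rose by 0.47 (SE 0.11, limma adjusted p 0.0370). Cebpa fell for the mean of both times (log2 change −0.55, SE 0.15, limma adjusted p 0.0402). Germline genes, a class silenced by these pathways in somatic cells, had 4 of 11 probe sets bright enough to test, and limma called 0 at either time, with 0 and 1 at an unadjusted p under 0.05 at 24 h and 48 h.

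**Figure D4:**
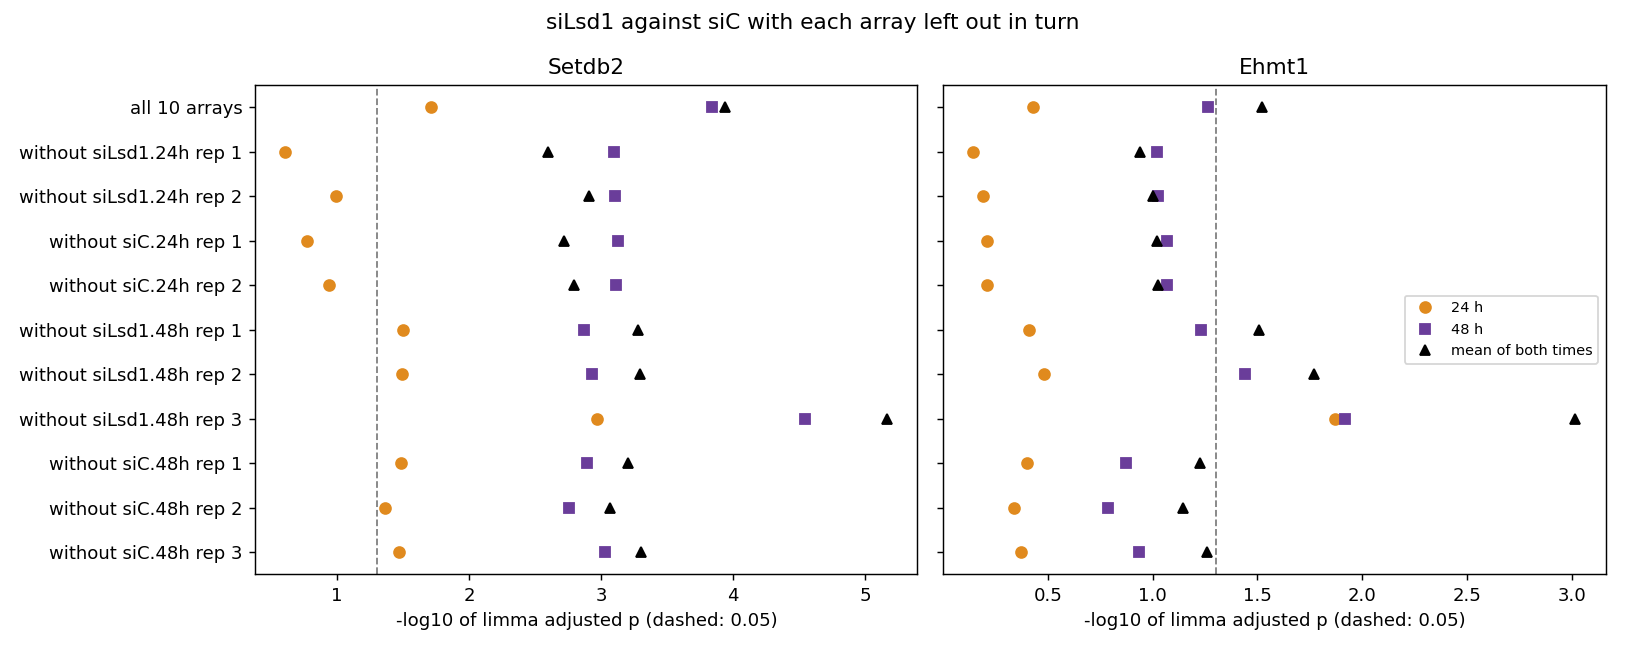
Negative log10 of the limma adjusted p (horizontal axis, dashed line at 0.05) of siLsd1 against siC for Setdb2 (left) and Ehmt1 (right), with all 10 arrays and with each array left out in turn (vertical axis), at 24 h (circles), 48 h (squares) and for the mean of both times (triangles). The Setdb2 points at 48 h stay past the line throughout, its 24 h points fall short without any of the 4 arrays of 24 h, and the Ehmt1 points move past the line at both times without siLsd1 48 h replicate 3.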

How the data were processed

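The authors deposited 1 table of probe set intensities on a linear scale, 1 column for each of the 10 arrays, from biotin-labelled cRNA on Affymetrix arrays, per the labels' protocols. The summary method, the normalization between arrays and a genome build are not given in the sources used here. All 10 columns matched a labelled sample, and no intensity was zero or negative. Log2 of the intensity was taken with nothing added. Gene symbols of probe sets came from the platform annotation (34945 with 1 symbol, 932 with several, 9160 with none listed), with symbols checked by Entrez identifier against RefSeq GRCm38.p6.

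Probe sets were the unit of the test. The dimmest 25% by mean intensity (up to 13.4 intensity units) were left out as dim, leaving 33777. Group means (4 groups) were estimated with limma 3.58.1 in R 4.3.3 (lmFit, eBayes with an intensity trend), 5 comparisons were taken, and p-values were adjusted by Benjamini and Hochberg within each over all probe sets tested, with a call at an adjusted p under 0.05. On simulated log2 values for 33777 probe sets, the fit called 8, 38, 72 and 84% of those changed by 0.5, 1, 2 and 3 at 24 h, and 20, 56, 86 and 94% at 48 h. The simulation changed only a small share of the probe sets and gave every array the same spread. The data differ in both, so these rates need not hold for them.

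All probe sets of the 6 genes are named, with the 3 genes most like each by Pearson r, and from each list up to 4 called genes with the largest change or, failing these, 2 with the smallest p. Other probe sets of Hells are given beside its call. The members and lists were chosen with earlier results of these data known, and the counts of lists without siLsd1 48 h replicate 3 were added after that array was seen to stand apart. Means ± SD are of linear intensities, and levels of different probe sets were not compared. RefSeq annotates Cers2 as overlapping Setdb1, Gm45935 as overlapping Setdb2 and Dclre1c as overlapping Suv39h2. The Setdb2 changes rest on its single probe set. Gm45935 has no probe set named for it, and whether the Setdb2 probe set also reads Gm45935 was not tested. The Cers2 probe set rose with siLsd1 at 48 h (limma log2 change 0.38, adjusted p 0.0418). Figures were drawn with matplotlib 3.10.9.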

Additional observations from a re-analysis of the deposited data

How the results depend on the processing

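Alternatives to the fit were 1 probe set per gene, averaging each gene's probe sets, testing dim probe sets too, leaving out the lowest 50%, quantile normalization, median-centred arrays, adding 16 to the intensity, no intensity trend, array weights, the arrays of the comparison alone, a replicate block and each array left out in turn. Of 867 such results for single probe sets of the 6 genes, 831 kept their side of the threshold and 36 did not, and no called change reversed its sign. Most of the 867 concern changes that were not called in the report, so this count says little of the calls. Among the calls, Setdb2 passed under 15 of 21 alternatives at 24 h and 21 of 21 at 48 h. Ehmt1 passed under 12 of 20 for the mean of both times. The number of called probe sets at 24 h, 1 in the report, was 0 without an intensity trend (Setdb2 adjusted p 0.0711) and 2 with array weights or the 24 h arrays alone, Ehmt1 being the addition, and it ranged from 0 to 2 over the arrays left out. At 48 h, again 1 in the report, it was 2 with 1 probe set per gene, averaged probe sets, the lowest 50% removed or quantile normalization, by the addition of Ehmt1, and 3 with array weights, by that of Ehmt1 and 1 Suv39h2 probe set, and it ranged from 1 to 2 with each array left out. For the mean of both times, 2 in the report, it was 1 without an intensity trend, where Ehmt1 was lost, and 1 to 2 with each array left out. Between the times in siC cells, 2 in the report, it was 1 with 1 probe set per gene or the lowest 50% left out, 4 with arrays centred on the median, and 1 to 3 with each array left out. The difference between the times had 0 calls among the 6 genes under every alternative run.

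Same-numbered samples did not deviate together (correlations of −0.04 at 24 h and −0.13, 0.09 and 0.02 at 48 h), so the numbers were not taken as pairs. With replicate number within each time as a block, the calls were 0 at 24 h, where Setdb2 had an adjusted p of 0.109, and 1 for siC at 48 h against 24 h, where Suv39h2 was lost (adjusted p 0.0767), and the other counts were as reported. Over all probe sets tested, 681 were called at 24 h, 2013 at 48 h, 4434 for the mean of both times and 6428 between the times in siC cells. Without siLsd1 48 h replicate 3 these were 4721, 3193, 6931 and 10497, with array weights 4396, 5814, 8253 and 10571, with the block 43, 647, 2629 and 2237, and without an intensity trend 101, 434, 2547 and 5224. With the arrays of a comparison alone they were 3837, 152 and 8482 at 24 h, at 48 h and between the times. The other leave-outs gave 8 to 507 at 24 h and 262 to 2078 at 48 h. For the difference between the times, 0 in the report, array weights gave 48 and leaving out siLsd1 48 h replicate 3 gave 101. The cause of these shifts was not tested. The table holds no detection calls, so the weak signals of Setdb1, Suv39h2 and Ehmt2 limit what can be said of small changes there.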
